A study of Mus musculus with 8 samples.

Results

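The 10 genes described here belong to the antioxidant pathway of the transcription factor NRF2 (Nfe2l2, Keap1, Gclc, Gclm, Gpx2, Txnrd1, Srxn1, Nqo1, Hmox1 and Osgin1). They were chosen by symbol from a deposited table of 32574 genes, in which each symbol stood in 1 row, and all 10 passed the filter on low values. The table held RNA sequencing of 8 libraries made from epithelial cells that had been sorted out of mouse skin epidermis, in a study of how clones of basal epidermal cells expand and how the tissue gains fluidity. There were 4 groups of 2 libraries. K14 ablation and Lrig1 ablation carried a basal lineage ablation, and K14 control and Lrig1 control were wild type (WT). K14 is keratin 14, made by cells of the basal epidermal layer, and Lrig1 is a membrane protein found on stem cells in the upper part of the hair follicle. The sources used here do not give what these names refer to (the driver of the ablation, the cells sorted or the cells ablated), nor the animals' age and strain, the means of ablation or the time after it. The labels do not say whether the libraries of a group came from separate animals, so a p-value here reflects the spread among these libraries alone, which may be technical.

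NRF2, the product of Nfe2l2, is held in the cytoplasm and passed to degradation by KEAP1. When oxidants or electrophiles modify KEAP1, NRF2 accumulates, enters the nucleus, pairs with small MAF proteins and binds antioxidant response elements of its target genes. In skin the pathway is known for protecting keratinocytes against oxidative and chemical stress, and the targets make glutathione, reduce peroxides and thioredoxin, and detoxify quinones and heme.

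Values are normalised read counts, that is, reads divided by a size factor of the library. Library depth was 6458636 to 11654135 reads, and 1 read was worth between 0.708 and 1.41 normalised read counts. All 7 listed markers of basal keratinocytes were above 0 in every group. Their summed counts were 206410 and 214964 in K14 ablation and 177686 and 180521 in K14 control. They were 90747 and 209178 in Lrig1 ablation, whose libraries were far apart, and 107216 and 116747 in Lrig1 control. The libraries of a control pair lay close together and those of an ablation pair did not, with a chi-square per gene between the 2 libraries of 27.7 in K14 ablation and 1.57 in K14 control, and of 39.5 in Lrig1 ablation and 2.58 in Lrig1 control. Among the 10 genes the higher library of a pair exceeded the lower by a median of 1.19 times in K14 ablation, 1.11 times in K14 control, 1.25 times in Lrig1 ablation and 1.1 times in Lrig1 control. The widest pair was Hmox1 in Lrig1 ablation, at 2.00 times.

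The promoters of 4 members are shown, 3 of genes that passed a test (Gpx2, Txnrd1 and Osgin1) and that of Srxn1, which held matches to a wider form of the response element but none to its narrow core. Nqo1 also passed a test, but its window held no match and is not shown. Of the Txnrd1 windows, the one with the narrow core is shown. The sequences are RefSeq windows of GRCm38.p6 covering the 250 bases before the annotated transcript start, written 5′ to 3′ on the strand of the gene, and capitals mark matches to the element or to the related AP-1 site. The Gpx2 window is chr12:76795555-76795804 on the minus strand, and the others are Txnrd1 at chr10:82858956-82859205, Srxn1 at chr2:152105274-152105523 and Osgin1 at chr8:119436897-119437146 on the plus strand.
Gpx2: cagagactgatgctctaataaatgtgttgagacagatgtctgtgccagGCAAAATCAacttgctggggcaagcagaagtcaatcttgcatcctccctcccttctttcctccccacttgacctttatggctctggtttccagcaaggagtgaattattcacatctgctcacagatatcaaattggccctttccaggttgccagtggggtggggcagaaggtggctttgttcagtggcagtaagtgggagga
Txnrd1: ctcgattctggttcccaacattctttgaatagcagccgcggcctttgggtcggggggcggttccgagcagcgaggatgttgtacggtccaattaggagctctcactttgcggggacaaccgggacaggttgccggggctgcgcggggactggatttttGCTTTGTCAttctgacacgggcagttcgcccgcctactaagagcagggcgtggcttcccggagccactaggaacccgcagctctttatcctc
Srxn1: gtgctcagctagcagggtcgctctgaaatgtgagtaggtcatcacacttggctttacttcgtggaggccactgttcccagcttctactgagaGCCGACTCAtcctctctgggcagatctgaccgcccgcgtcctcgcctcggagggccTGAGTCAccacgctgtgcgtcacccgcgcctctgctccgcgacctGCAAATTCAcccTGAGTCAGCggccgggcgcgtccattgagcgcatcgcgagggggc
Osgin1: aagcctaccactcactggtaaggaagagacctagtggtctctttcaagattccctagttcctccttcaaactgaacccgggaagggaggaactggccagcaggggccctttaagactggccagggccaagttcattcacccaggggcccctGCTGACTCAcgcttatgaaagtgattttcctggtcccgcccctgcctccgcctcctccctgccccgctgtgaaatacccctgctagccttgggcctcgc

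On both strands, 3 motifs were searched: the core of the antioxidant response element, TGACNNNGC, a wider core, TGANNNNGC, which was added after the sequences had been seen and which every match of the first also meets, and the AP-1 site TGANTCA. Windows were found for 8 of the 10 members, 10 windows in all, as Txnrd1 has 3, and Gclc and Hmox1 had none. The narrow core was found for Nfe2l2, Gclm and Txnrd1, that is, for 3 members, while 10.2% of all 32851 windows and 11.5% of all 27025 genes in the table held it. In the Txnrd1 window above it reads TGACAAAGC on the opposite strand, 92 to 84 bases before the start. The wider core was found for 7 members, all but Nqo1, against 35.2% of all windows and 38.7% of genes, and in Gpx2 it reads TGATTTTGC on the opposite strand, 202 to 194 bases before the start. AP-1 sites were found in 2 members, against 6.7% of all windows and 7.8% of genes. Srxn1 held AP-1 sites at 102 to 96 and at 45 to 39 bases before the start, and Osgin1 held 1. In Srxn1 the nearer site and the wider core overlap in TGAGTCAGC, and the same 9 letters stand in Osgin1 on the opposite strand. The Osgin1 window and the Txnrd1 window printed above lie inside the longer gene models of the GENCODE annotation. These matches describe letters in a window, and binding was not measured here.

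**Figure D1:**
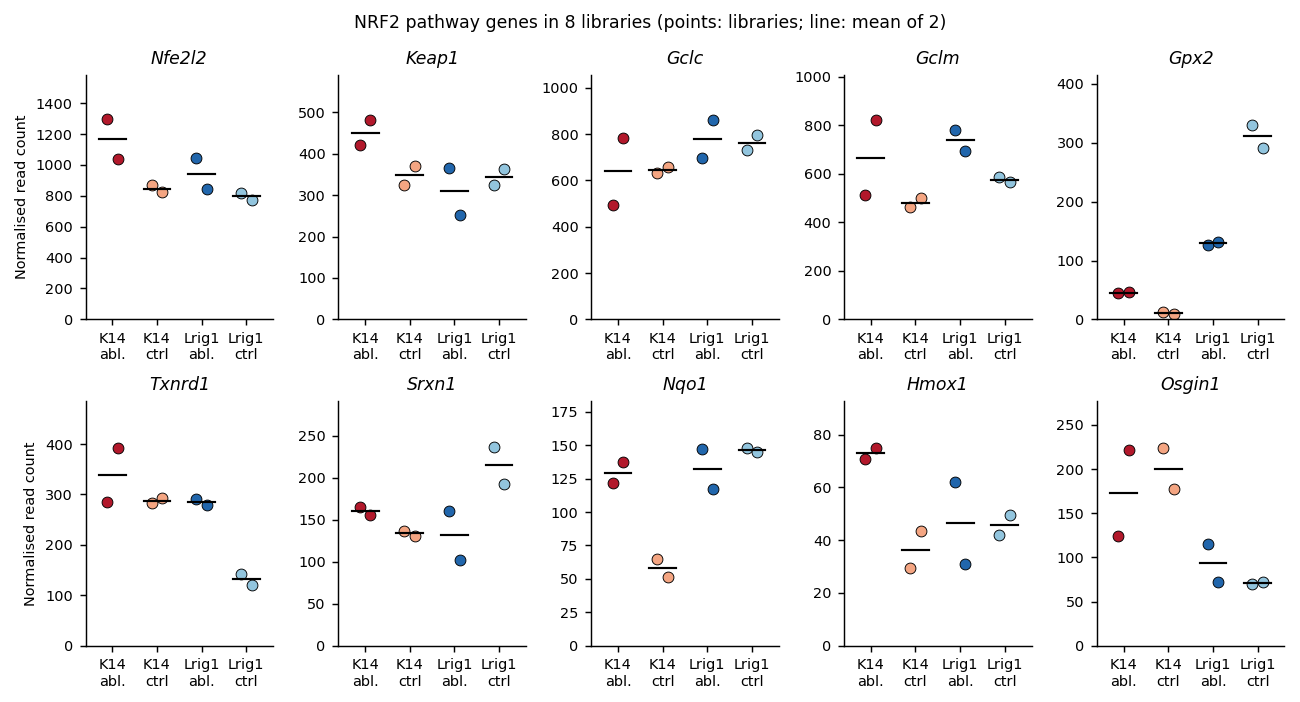
Normalised read count (vertical axis, linear from 0) of the 10 genes in each library (points) with the mean of 2 libraries (line), in K14 ablation, K14 control, Lrig1 ablation and Lrig1 control. Gpx2 stood at 44.6 and 46.1 in K14 ablation, 13.2 and 9.85 in K14 control, 126 and 132 in Lrig1 ablation and 331 and 292 in Lrig1 control, while Gclc stayed between 496 and 863 throughout.

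In the K14 groups, Gpx2 was the member that passed the test, and it was higher after ablation. In the Lrig1 groups Txnrd1 was higher after ablation and Gpx2 was lower. Gpx2 therefore changed in opposite directions, and between the 2 control groups it differed by about 27 times. The regulators Nfe2l2 and Keap1 and the glutathione synthesis genes Gclc and Gclm passed the test in none of the 6 comparisons of the main fit. All tests are limma fits over 18140 genes, with p-values adjusted by Benjamini and Hochberg over all of them and a threshold of 0.05, and differences are on the log2(count + 1) scale, on which the change of a gene with few reads is understated.

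As a group, 1 of the 10 genes passed in K14 ablation against K14 control, where 34 genes or 0.187% of all passed. In Lrig1 ablation against Lrig1 control 2 of 10 passed, against 4.06% of all genes, and for the mean of the effects 1 of 10, against 2.83%. For the difference of the effects it was 1 of 10, against 0.198%. Between controls 4 of 10 passed, Gpx2 and Nqo1 higher and Txnrd1 and Osgin1 lower in Lrig1, against 8.79% of all genes, and between the ablation groups 1 of 10, against 0.667%. With counts this small the shares describe single genes.

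The order of levels, as normalised read counts per kilobase of exon, was led by Nfe2l2 in every group, with 308 in K14 ablation, 223 in K14 control, 248 in Lrig1 ablation and 210 in Lrig1 control. Gclc was next in every group, with 170 in K14 ablation, 171 in K14 control, 207 in Lrig1 ablation and 203 in Lrig1 control, and in Lrig1 control these 2 genes did not differ beyond their spread. Gpx2 was the lowest of the 10 in K14 ablation at 14.1 and in K14 control at 3.58, but stood at place 8 in Lrig1 ablation at 40.1 and at place 3 in Lrig1 control at 96.6, where Nqo1 (94.3) and Gclm (91.4) lay within the spread of its libraries. In K14 control Gclm (76.4), Osgin1 (74.9) and Keap1 (74.2) did not differ beyond their spread. Within Lrig1 ablation Srxn1 (46.5), Txnrd1 (40.3), Gpx2 (40.1) and Osgin1 (35.1) stood close together, and the libraries of Srxn1 and Osgin1 were further apart than these gaps. Txnrd1 came last in Lrig1 control at 18.6, below Hmox1 at 26.1 and Osgin1 at 26.5. The annotated exons of Gpx2 together cover its whole span of 3222 bases, so its level per kilobase is a low estimate.

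Nfe2l2 (ENSMUSG00000015839, GRCm38 chromosome 2, 75675513 to 75704641, minus strand) encodes NRF2 itself. It had 1295 and 1039.9 normalised read counts in K14 ablation, against 868 and 823 in K14 control, and 1042 and 843 in Lrig1 ablation, against 821 and 774 in Lrig1 control. Both ablation libraries lay above both controls in each pair of groups, but Lrig1 ablation 2 stood only just above Lrig1 control 1. The log2 differences were 0.46 ± 0.17 for K14 (SE, limma adjusted p = 0.327) and 0.23 ± 0.17 for Lrig1 (adjusted p = 0.485). Their mean was 0.35 ± 0.12 (adjusted p = 0.163), and none of the 3 passed. Without Lrig1 ablation 2 the mean was 0.42. The 2 controls differed by -0.09 ± 0.17 for Lrig1 over K14 (adjusted p = 0.812). The nearest profiles over the 8 libraries were those of Rnf26, which the table lists under 2 gene identifiers, with r of 0.976 and 0.970, and of Dlg5, with 0.972.

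Keap1 (ENSMUSG00000003308, GRCm38 chromosome 9, 21229730 to 21239361, minus strand), the repressor of NRF2, had 421 and 481 normalised read counts in K14 ablation, against 325 and 371 in K14 control, and 365 and 253 in Lrig1 ablation, against 324 and 362 in Lrig1 control. The K14 groups did not overlap, whereas in the Lrig1 groups the 2 ablation libraries lay on either side of the controls. The log2 difference was 0.37 ± 0.20 for K14 (adjusted p = 0.478) and -0.17 ± 0.20 for Lrig1 (adjusted p = 0.692), where with equal library totals it was 0.08. Set against K14 ablation, Lrig1 ablation was at -0.57 ± 0.20 (limma adjusted p = 0.236), and without Lrig1 ablation 1 at -0.83. Exons of Keap1 share 510 bases with the antisense gene Gm16754, which reached 107.5 normalised read counts at most, and as the sources used here give no strand setting, reads of the 2 genes cannot be told apart.

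Gclc and Gclm encode the catalytic and the modifier subunit of glutamate-cysteine ligase, the first and rate-limiting step of glutathione synthesis. Gclc (ENSMUSG00000032350, chromosome 9, 77754535 to 77794485, plus strand) had 496 and 784 normalised read counts in K14 ablation, against 632 and 659 in K14 control, and 696 and 863 in Lrig1 ablation, against 732 and 795 in Lrig1 control. In both pairs of groups the ablation libraries enclosed the controls. The log2 differences were -0.05 ± 0.22 (adjusted p = 0.945) for K14 and 0.02 ± 0.22 (adjusted p = 0.97) for Lrig1, both smaller than their errors. Lrig1 control stood above K14 control by 0.24 ± 0.22 (limma adjusted p = 0.564). This passed with only the controls fitted (limma adjusted p = 0.0214), where 7269 of 18140 genes passed.

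Gclm (ENSMUSG00000028124, chromosome 3, 122245557 to 122270732, plus strand) had 511 and 822 normalised read counts in K14 ablation, against 462 and 499 in K14 control, and 782 and 694 in Lrig1 ablation, against 587 and 564 in Lrig1 control. All 4 ablation libraries lay above the controls of their own pair, and K14 ablation 1 was close to K14 control 2. The log2 differences of 0.43 ± 0.22 for K14 (limma adjusted p = 0.448) and 0.36 ± 0.22 for Lrig1 (adjusted p = 0.411) did not pass. Their mean of 0.39 ± 0.15 (adjusted p = 0.217) did not pass either, and without K14 ablation 1 it was 0.57. Between controls the difference of Gclm was 0.26 ± 0.22 for Lrig1 over K14 (limma adjusted p = 0.522), and it too passed with only the controls fitted (limma adjusted p = 0.0206). Gclm shares 296 exon bases with the antisense gene Gm17494 and 244 with the pseudogene Gm6061, which reached 54.1 and 15.9 normalised read counts.

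Gpx2 (ENSMUSG00000042808, chromosome 12, 76792333 to 76795554, minus strand) encodes a glutathione peroxidase of epithelia that reduces hydrogen peroxide. In K14 ablation it had 44.6 and 46.1 normalised read counts (63 and 43 reads), against 13.2 and 9.85 (13 and 10 reads) in K14 control. Both ablation libraries were more than 3 times the higher control. The means of 45.3 ± 1.08 in K14 ablation and 11.5 ± 2.37 in K14 control (SD, n = 2 each) stood in a ratio of 3.93, and the log2 difference was 1.90 ± 0.24 (adjusted p = 0.0305 by limma, 0.036 by edgeR).

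In Lrig1 ablation Gpx2 had 126 and 132 normalised read counts, against 331 and 292 in Lrig1 control. The groups were far apart, and each was tight. The means were 129 ± 4.33 in Lrig1 ablation and 311 ± 27.4 in Lrig1 control (SD, n = 2 each), so that Lrig1 ablation held 41.5% of the Lrig1 control level, with a log2 difference of -1.26 ± 0.24 (adjusted p = 0.0291 by limma, 0.0187 by edgeR). The difference between the Lrig1 and K14 effects was itself tested and was -3.16 ± 0.34 on the log2 scale (adjusted p = 0.0384), and the mean of the 2 effects was 0.32 ± 0.17 (adjusted p = 0.355).

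Lrig1 control stood above K14 control by 4.65 ± 0.24 for Gpx2 (adjusted p = 0.000717), a ratio of means of 27.0. Lrig1 ablation stood above K14 ablation by 1.49 ± 0.24 (adjusted p = 0.0419), a ratio of 2.85. All 4 levels were thus separate, in the order K14 control, K14 ablation, Lrig1 ablation, Lrig1 control. These comparisons share control or ablation libraries with those above and are not independent of them.

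The calls of Gpx2 differed in how far they were kept over the alternatives. Leaving out any control library also left fewer of all genes called in each of the 6 comparisons, so a call lost in this way is not particular to its gene. The K14 difference of Gpx2 stayed at 1.90 without either Lrig1 control library, as neither enters that contrast. Its Lrig1 difference likewise stayed at -1.26 without either K14 control library. Lrig1 control against K14 control passed in all 19 alternatives, with log2 differences of 4.03 to 4.84 and adjusted p at most 0.0428. The K14 ablation call was lost on leaving out K14 ablation 1 (adjusted p = 0.0733) or any control library, with 0.417 and 0.387 without K14 control 1 and 2 and 0.147 and 0.143 without Lrig1 control 1 and 2, although the log2 difference kept to 1.71 to 2.09 in those fits. The Lrig1 ablation call was lost with equal library totals (adjusted p = 0.0551) and on leaving out any control library, with 0.0668 and 0.0642 without K14 control 1 and 2 and 0.266 and 0.234 without Lrig1 control 1 and 2. The test of the difference was lost without the same 4 control libraries (adjusted p from 0.263 to 0.411), with equal library totals (0.0614) and with a filter at 1e-05 of the library total (0.0529). Fitted on their own 2 groups, the K14 call had an adjusted p of 0.113 and the Lrig1 call 0.0604, and with array weights the Lrig1 call had 0.126. The call of Lrig1 ablation against K14 ablation was lost on leaving out any library but Lrig1 ablation 1 (adjusted p from 0.0574 to 0.159).

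**Figure D2:**
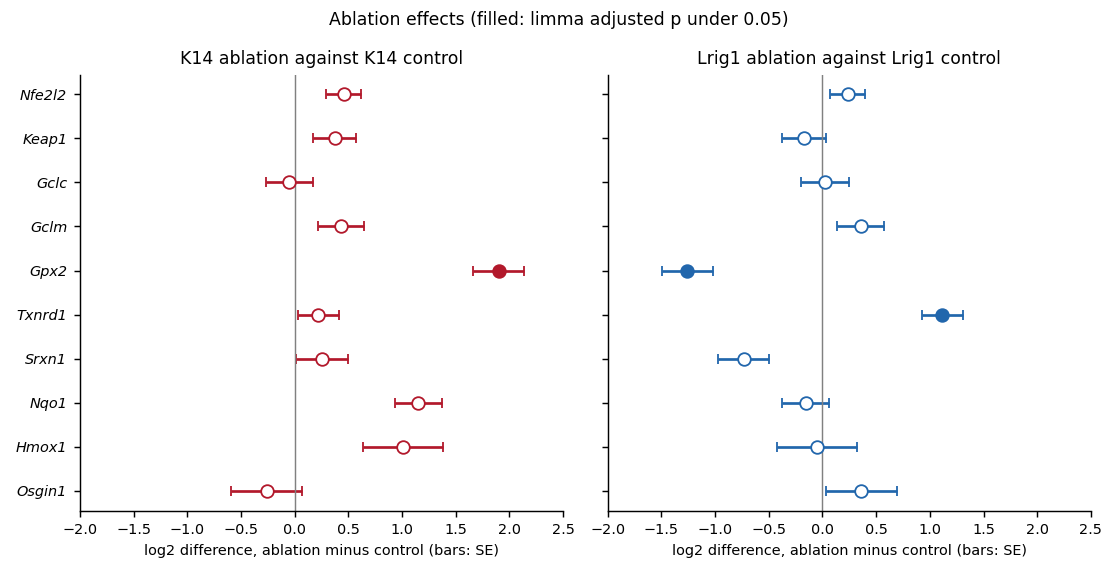
Log2 difference of ablation minus control (horizontal axis, bars: SE) for the 10 genes in the K14 groups and the Lrig1 groups, with filled points where the adjusted p was under 0.05. Gpx2 is filled on opposite sides of 0, at 1.90 for K14 and -1.26 for Lrig1, and Txnrd1 is filled at 1.12 for Lrig1.

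By summed counts, the suprabasal, upper hair follicle, endothelial and myeloid markers differed in the same direction as Gpx2 between the Lrig1 groups and between the controls. Not all did in the K14 groups. The fibroblast sum went the other way, at 943 to 1045 in Lrig1 ablation, 682 to 743 in Lrig1 control and 876 to 937 in K14 control. Single genes weighed heavily in it. Fbln1 had 595 and 556 in Lrig1 ablation against 276 and 240 in Lrig1 control, where 3 tested differences were positive and 4 negative. Thy1 had 668 and 698 in K14 control against 217 and 207 in Lrig1 control. Yet 6 of 7 tested fibroblast genes were higher in Lrig1 control than in K14 control. Basal, sebaceous, T cell and neutrophil sums were lower in Lrig1 control than in K14 control, the melanocyte sum was higher and the erythroid sums overlapped. Thy1, which stands in the T cell list as well, made up most of the T cell sum. Of 5 tested T cell genes 2 were higher and 3 lower in Lrig1 control. The summed count of 10 suprabasal differentiation genes ran from 61197 to 88352 in K14 ablation and from 78250 to 82871 in K14 control, and from 40224 to 41745 in Lrig1 ablation and from 133234 to 149345 in Lrig1 control. In Lrig1 ablation all 10 differences were negative and 6 passed as lower, against 3.30% of all genes, while in K14 ablation 9 of 10 were negative with a median log2 difference of -0.59 and none passed, opposite in sign to Gpx2. None of the 10 genes was at 0. The 7 genes of the upper hair follicle summed to 8983 to 15744 in K14 ablation and 8045 to 8104 in K14 control, where 3 log2 differences were positive and 4 negative, and to 18768 to 35465 in Lrig1 ablation and 58644 to 61324 in Lrig1 control.

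The 9 endothelial and mural genes summed to 57.9 to 103 in K14 ablation and 69.9 to 87.3 in K14 control, and to 58.6 to 134 in Lrig1 ablation and 938 to 1022 in Lrig1 control. In Lrig1 ablation Sele was at 0 in both libraries, and in K14 control Kdr was at 0 in both. The 14 myeloid and Langerhans cell genes stood in 15 rows, as Itgam was repeated. These rows summed to 619 to 1470 in K14 ablation and 494 to 634 in K14 control, and to 272 to 290 in Lrig1 ablation and 891 to 1178 in Lrig1 control. C1qa and C1qb, markers of macrophages, were at 0 in both K14 control libraries. Mitochondrial genes took 2.34 to 2.91% of the normalised counts in the K14 libraries, 3.14 and 4.14% in Lrig1 ablation, and 6.29 and 6.89% in Lrig1 control. Between controls, 6 of 10 suprabasal, 5 of 7 upper hair follicle and 6 of 7 tested endothelial genes passed as higher in Lrig1 control. So did 5 of 10 tested myeloid rows, against 6.52% of all genes. In the same order, 10, 6, 7 and 7 of the differences were positive. In Lrig1 ablation 6 of 7 tested endothelial genes passed as lower, and all 7 differences were negative. In K14 ablation 9 of 10 tested myeloid rows had a positive difference and none passed. The part of these cell types and of the mitochondrial share in the level of Gpx2 was not tested, and in such bulk libraries fewer cells of a type and less RNA per cell cannot be told apart.

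**Figure D3:**
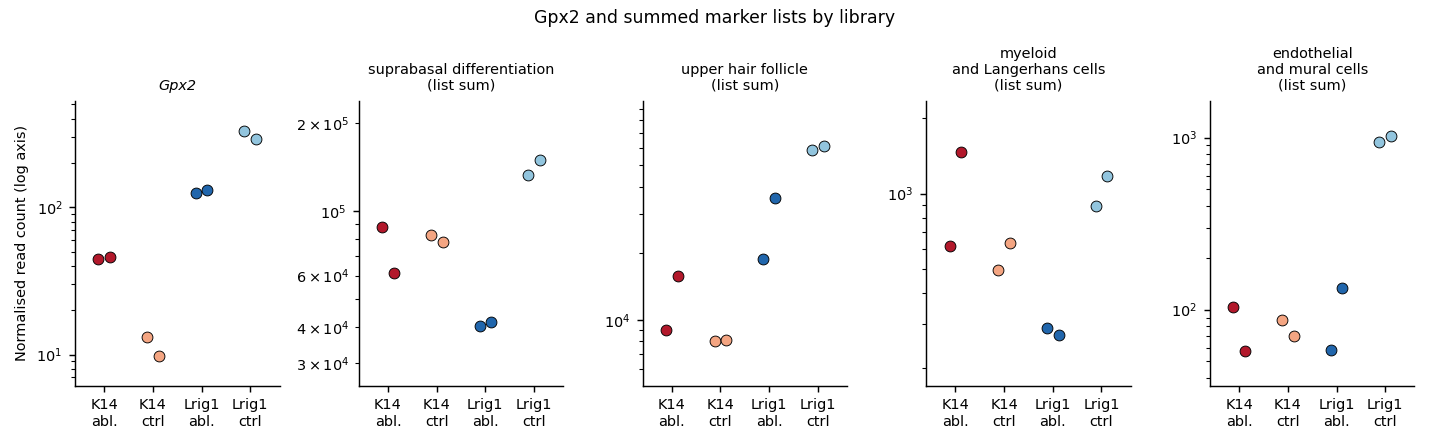
Normalised read count (vertical axes, log scale) of Gpx2 and summed counts of 4 marker lists in each library (points). Gpx2 and the suprabasal, upper hair follicle and endothelial lists are highest in both Lrig1 control libraries. The suprabasal list is lowest in Lrig1 ablation, at 40224 and 41745.

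Over the 8 libraries, genes with a profile close to that of Gpx2 included Ncs1 and Palm, each with a Pearson's r of 0.989 among 18139 genes, of which 255 exceeded 0.9. Ncs1, a neuronal calcium sensor, averaged 262 normalised read counts in K14 ablation and 154 in K14 control, and 328 in Lrig1 ablation and 444 in Lrig1 control. The 8 points of such a correlation fall in 4 groups of 2 and are not independent.

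Txnrd1 and Srxn1 belong to the thioredoxin arm. Txnrd1 (ENSMUSG00000020250, chromosome 10, 82833951 to 82897712, plus strand), the cytosolic thioredoxin reductase, had 286 and 391 normalised read counts in K14 ablation, against 282 and 292 in K14 control, and 292 and 279 in Lrig1 ablation, against 142 and 121 in Lrig1 control. The Lrig1 control libraries alone were low, and the other 3 groups ran from 279 to 391. Txnrd1 was higher in Lrig1 ablation by a log2 difference of 1.12 ± 0.19, or 2.17-fold (286 ± 8.89 in Lrig1 ablation against 132 ± 14.7 in Lrig1 control, SD, n = 2 each, adjusted p = 0.0216 by limma, 0.0248 by edgeR).

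In K14 the difference of Txnrd1 was 0.22 ± 0.19 (adjusted p = 0.667), the mean of the 2 effects 0.67 ± 0.14 (adjusted p = 0.0451) and the Lrig1 effect minus the K14 effect 0.90 ± 0.27 (adjusted p = 0.199), so the effects were not shown to differ. Between controls Txnrd1 was lower in Lrig1 control than in K14 control by -1.12 ± 0.19 (adjusted p = 0.0131), a contrast that rests on the same Lrig1 control libraries. On leaving out a control library the Lrig1 ablation call was lost each time, with an adjusted p of 0.0726 and 0.0738 without K14 control 1 and 2 and of 0.154 and 0.234 without Lrig1 control 1 and 2. The mean effect was no longer called without those same libraries or without K14 ablation 2 (adjusted p from 0.0577 to 0.239), and the contrast between controls was lost without any control library (adjusted p from 0.0955 to 0.14). With only the Lrig1 groups fitted the Lrig1 call was lost (adjusted p = 0.0803), as was the mean effect with no filter on low values (0.0657).

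Srxn1 (ENSMUSG00000032802, chromosome 2, 152105516 to 152111376, plus strand) encodes sulfiredoxin, which repairs overoxidised peroxiredoxins. It had 165 and 155 normalised read counts in K14 ablation, against 137 and 131 in K14 control, and 161 and 102 in Lrig1 ablation, against 236 and 193 in Lrig1 control. The groups did not overlap in either pair, above the control in K14 and below it in Lrig1. The log2 differences were 0.25 ± 0.24 (adjusted p = 0.691) and -0.74 ± 0.24 (adjusted p = 0.138), and the difference between them was -0.99 ± 0.34 (adjusted p = 0.247). Without Lrig1 ablation 1, which leaves a single library in that group, the Lrig1 difference was -1.06 and the difference of the effects -1.32. Lrig1 ablation against K14 ablation was -0.32 in the main fit and -0.65 without that library. Lrig1 control stood above K14 control by 0.67 ± 0.24 (limma adjusted p = 0.136). This passed with array weights (limma adjusted p = 0.00317), where 6747 of 18140 genes passed. It also passed with only the controls fitted (limma adjusted p = 0.000867), where 7269 genes passed.

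Nqo1, Hmox1 and Osgin1 act in detoxification and stress response. Nqo1 (ENSMUSG00000003849, chromosome 8, 107388225 to 107403206, minus strand), a quinone reductase and a classical NRF2 target, had 122 and 137 normalised read counts in K14 ablation, against 65.0 and 51.2 in K14 control, and 147 and 117 in Lrig1 ablation, against 148 and 145 in Lrig1 control. Here K14 control alone was low, and the other 3 groups ran from 117 to 148. The log2 difference in K14 was 1.15 ± 0.22, or 2.22-fold, and did not pass (adjusted p = 0.121 by limma, 0.138 by edgeR).

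In Lrig1 the difference of Nqo1 was -0.16 ± 0.22 (adjusted p = 0.743), and with equal library totals it was 0.09. The Lrig1 effect minus the K14 effect was -1.31 ± 0.31 (adjusted p = 0.123). Between controls Nqo1 was 2.51-fold higher in Lrig1 control than in K14 control, at 1.33 ± 0.22 (adjusted p = 0.0118), and this call was lost without any 1 of the 4 control libraries (adjusted p from 0.073 to 0.125). The K14 difference passed with array weights (limma adjusted p = 0.0283), where 477 of 18140 genes passed. The mean effect was 0.50 ± 0.15 (limma adjusted p = 0.135), and without Lrig1 ablation 2 it was 0.58. Without Lrig1 ablation 1 the difference of the effects was -1.47. The nearest profiles were those of Ppp1r9b, Ppdpf and Fam171a2, with r of 0.961, 0.960 and 0.955 over the 8 libraries.

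Hmox1 (ENSMUSG00000005413, chromosome 8, 75093621 to 75100589, plus strand) encodes heme oxygenase 1, which breaks down heme and is also made by macrophages. It had 70.8 and 75.0 normalised read counts in K14 ablation, against 29.4 and 43.3 in K14 control, and 62.1 and 31.0 in Lrig1 ablation, against 41.9 and 49.3 in Lrig1 control. K14 ablation was clear of its control, and the Lrig1 ablation libraries enclosed theirs. The log2 difference was 1.01 ± 0.37 in K14 (adjusted p = 0.33) and -0.05 ± 0.37 in Lrig1 (adjusted p = 0.963), where edgeR gave 0.07 and equal library totals gave 0.20. Lrig1 ablation against K14 ablation gave -0.72 ± 0.37 (limma adjusted p = 0.372), and without Lrig1 ablation 1 it was -1.20. The summed myeloid markers were also higher in K14 ablation 2 than in the other libraries, at 1470, of which Cd74 made up 944, against 144 in K14 ablation 1. The other markers of the list were split between K14 ablation 1 and 2. Ptprc (35.4 and 19.3), Mrc1 (10.6 and 3.22), C1qb (7.78 and 2.14), C1qa, Tyrobp and Cd207 were lower in K14 ablation 2. Csf1r (54.5 and 78.3), Cd68 (53.1 and 69.7), Fcer1g, Itgam, Lyz2, Adgre1 and Aif1 were higher there. Ptprc, Mrc1, C1qb and Csf1r lay above both K14 control libraries, although 3.22 is the value of only 3 reads in K14 ablation 2. Hmox1 was nearly equal in the 2 K14 ablation libraries, and the part of these cells in Hmox1 was not tested. The nearest profiles were those of Ctdnep1, Nelfb and Smtnl2, with r of 0.981, 0.978 and 0.975.

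Osgin1 (ENSMUSG00000074063, chromosome 8, 119434124 to 119446256, plus strand), an oxidative stress-induced growth inhibitor, had 124 and 222 normalised read counts in K14 ablation, against 223 and 177 in K14 control, and 115 and 72.4 in Lrig1 ablation, against 69.8 and 71.9 in Lrig1 control. The K14 groups overlapped, and Lrig1 ablation 2 stood just above the controls. The log2 differences of -0.26 ± 0.33 in K14 (adjusted p = 0.774) and 0.36 ± 0.33 in Lrig1 (adjusted p = 0.593) did not pass. Lrig1 control was lower than K14 control by -1.48 ± 0.33 and held 35.4% of its level (adjusted p = 0.0318), a call lost without any 1 of the 4 control libraries (adjusted p from 0.148 to 0.237).

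In K14 ablation the 2 libraries lay above both controls for 7 of the 10 genes and below for none, while 27.4% of all genes lay above and 25.7% below. The median log2 difference of the 10 genes was 0.40 in K14, with 8 positive, and the median of all genes was -0.0018. In Lrig1 ablation 4 of 10 lay above both controls and 2 below, against 21.4% and 26.4% of all genes, with a median of -0.01 beside -0.02 for all genes. That Lrig1 median depended on the scaling, as with equal library totals it was 0.23, with 8 of 10 positive against 5 of 10 as deposited, and the median of all genes moved by 0.25.

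The wider antioxidant system was read from 8 lists of 108 genes, of which 100 could be tested. In K14 ablation none passed by limma, 18 had an unadjusted p under 0.05, against 12.8% of all genes, and the median log2 difference was 0.03. In Lrig1 ablation 1 gene passed as higher and 7 as lower, against 0.766% and 3.30% of all genes, with a median of -0.22 and 67 negative differences. This balance also turned with the scaling: with equal library totals 5 were higher and 3 lower, with a median of 0.03, while over all genes 547 were then higher and 359 lower, in place of 139 higher and 598 lower. Slc7a11, Bach1, Nfe2l1 and Sesn2, described below as lower in Lrig1 ablation, did not pass with those totals (limma adjusted p from 0.0757 to 0.108).

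Of the 19 NRF2 regulators and partners, 1 passed as higher and 3 as lower in Lrig1 ablation, while 6 differences were positive and 13 negative. Bach1, a repressor that competes with NRF2 for response elements, averaged 912 ± 45.1 normalised read counts in Lrig1 ablation against 1626 ± 9.23 in Lrig1 control (SD, n = 2 each), a log2 difference of -0.83 ± 0.17 (adjusted p = 0.0374 by limma, 0.0513 by edgeR). In K14 it was 1361 and 982 in K14 ablation against 1592 and 1622 in K14 control, and the mean of both effects was -0.65 ± 0.12 (adjusted p = 0.0334).

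Nfe2l1, a relative of NRF2 that binds the same elements, averaged 1544 in Lrig1 ablation against 2716 in Lrig1 control (log2 difference -0.81 ± 0.16, adjusted p = 0.0345). Cdkn1a, the cell cycle inhibitor p21, which can bind NRF2, averaged 561 ± 139 in Lrig1 ablation against 1567 ± 20.3 in Lrig1 control (log2 difference -1.50 ± 0.19, adjusted p = 0.00848), with a mean effect over both pairs of -1.10 ± 0.14 (adjusted p = 0.009). Brca1, a DNA repair protein that also partners NRF2, was the gene that was higher, at 283 ± 63.3 in Lrig1 ablation against 141 ± 8.18 in Lrig1 control (log2 difference 0.98 ± 0.22, adjusted p = 0.0472).

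Among 10 tested genes of glutathione synthesis and the peroxidases, Slc7a11, the cystine transporter that supplies cysteine for glutathione, was lower. It averaged 88.1 ± 10.4 in Lrig1 ablation against 176 ± 15.9 in Lrig1 control (log2 difference -0.99 ± 0.20, adjusted p = 0.0349), and in K14 it was 83.5 and 75.0 in K14 ablation against 134 and 125 in K14 control. The mean of both effects was -0.85 ± 0.14 (adjusted p = 0.0228), and all 4 ablation libraries lay below all 4 controls. Among 15 glutathione transferases Gsta2 passed, at 10.7 and 3.18 in Lrig1 ablation against 75.7 and 84.6 in Lrig1 control (log2 difference -3.54 ± 0.51, adjusted p = 0.0129), and 12 of 15 differences were negative with a median of -0.56. Gsta2 shares most of its sequence with Gsta1, so its count is uncertain where reads could be split between them.

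Of 16 thioredoxin and peroxiredoxin genes, Prdx5, a peroxiredoxin, was lower, at 386 ± 138 in Lrig1 ablation against 997 ± 99.3 in Lrig1 control (log2 difference -1.41 ± 0.23, adjusted p = 0.0188). Sesn2, a sestrin, averaged 143 in Lrig1 ablation against 257 in Lrig1 control (adjusted p = 0.0466 by limma, 0.0604 by edgeR). Prdx3, the mitochondrial peroxiredoxin, rose over both pairs, with 179 and 181 in K14 ablation against 87.3 and 89.6 in K14 control, and 162 and 123 in Lrig1 ablation against 76.8 and 77.5 in Lrig1 control. Its mean effect was 0.94 ± 0.14 (adjusted p = 0.0169), and neither pair passed alone (adjusted p = 0.134 for K14 and 0.0573 for Lrig1).

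Ephx1, the microsomal epoxide hydrolase, likewise rose over both pairs. It had 399 and 430 in K14 ablation against 229 and 258 in K14 control, and 577 and 614 in Lrig1 ablation against 409.8 and 385 in Lrig1 control, with a mean effect of 0.68 ± 0.10 (adjusted p = 0.0162). Of 8 genes of NADPH supply, of 9 of heme and iron handling and of 3 superoxide dismutases and catalase, none passed by limma in either ablation comparison, and 3, 2 and 0 had an unadjusted p under 0.05 in K14 and 3, 1 and 0 in Lrig1, against 12.8% and 20.1% of all genes. For NADPH supply 7 of 8 differences were positive in K14, with a median of 0.37, and 3 of 8 in Lrig1, with a median of -0.36. Leaving out either Lrig1 control library ended the Lrig1 call of all 8 pathway genes named as passing there (adjusted p from 0.113 to 0.321), and leaving out any 1 of the 4 control libraries ended the 6 calls on the mean effect (adjusted p from 0.0737 to 0.194). Of 19 alternatives, the Lrig1 call was kept in 17 for Cdkn1a, in 14 for Prdx5, in 11 for Slc7a11, in 10 each for Nfe2l1, Bach1 and Brca1 and in 7 for Sesn2, and for Gsta2 in 15 of 18.

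**Figure D4:**
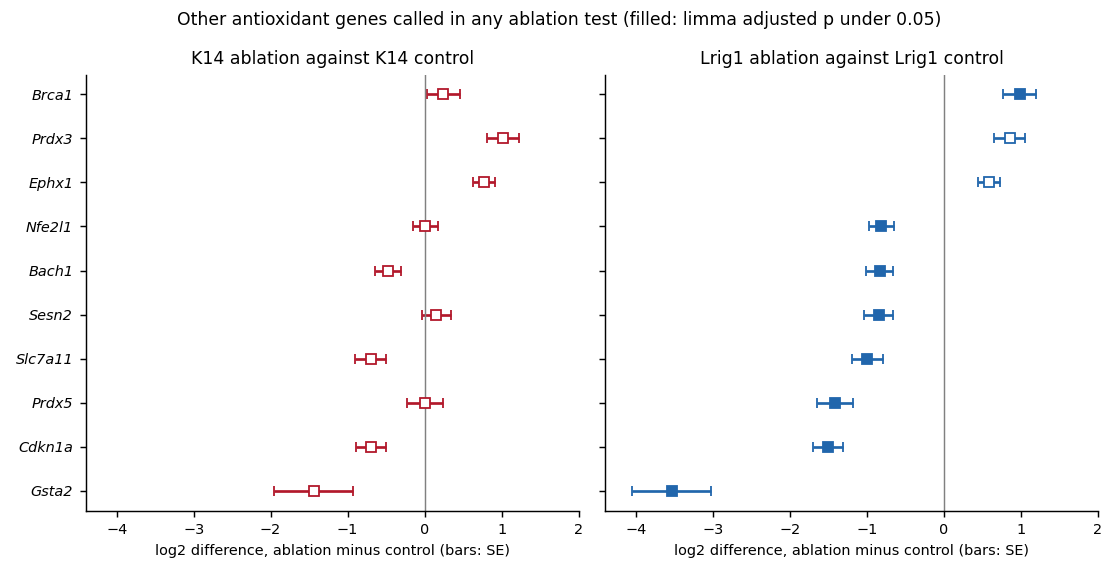
Log2 difference of ablation minus control (horizontal axis, bars: SE) in the K14 groups and the Lrig1 groups for the 10 other antioxidant genes that passed in an ablation comparison or in the mean of both, filled where that comparison had an adjusted p under 0.05. Slc7a11, Cdkn1a, Bach1 and Gsta2 lie below 0 in both panels and Prdx3 and Ephx1 above it, while Prdx5, Nfe2l1 and Sesn2 are below 0 in Lrig1 and near it in K14.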

How the data were processed

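Per the submitters' processing notes, the tools used were Trimmomatic, HTSeq 0.11.1, STAR and Picard, on GRCm38 (mm10), while the sources used here give neither the role of each tool nor the strand setting or annotation release. Per the labels' protocols, FACS-sorted cells were lysed, polyA RNA came from an RNeasy Micro extraction and the Ovation Solo system gave the libraries. The deposited table holds a normalised signal per gene and library, made by the authors from read counts divided by 1 size factor per library. In every library 100% of the values were whole multiples of 1 step within 0.001, so whole reads were recovered. Columns of ablation libraries carry other words than the labels and were matched as the only groups that are not control, with 1.1 read as replicate 1.

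The main test was limma 3.58.1 (R 4.3.3) with a variance trend on log2(value + 1), 1 fit of the 4 group means. The filter asked for 1e-06 of the total or more in 2 or more libraries and left 18140 genes, and residual and prior degrees of freedom were 4 and 4.13. Alternatives included edgeR 4.0.16 and DESeq2 1.42.0 on the recovered reads. In K14 ablation limma called 34 genes, edgeR 32 and DESeq2 220, and in Lrig1 ablation 737, 588 and 995.

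A count of 3 reads corresponds to 2.12 to 4.23 normalised read counts, for counting error only, as molecules were not told apart. Coordinates and exon lengths are from GENCODE M21, in which 32443 gene identifiers were found. Named are all 10 members, the genes of 8 pathway lists that passed in an ablation comparison, their mean or their difference, and the 3 genes with the nearest profile to Gpx2, Nqo1, Hmox1 and Nfe2l2, of which 1 is not reported here. The members and lists were chosen with earlier results of these data known.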

Additional observations from a re-analysis of the deposited data

Results flagged for a closer look

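Gpx2 stood out because its ablation effects differed between the K14 and the Lrig1 groups by a test of the difference itself. It was higher in K14 ablation (44.6 and 46.1 normalised read counts) than in K14 control (13.2 and 9.85), and lower in Lrig1 ablation (126 and 132) than in Lrig1 control (331 and 292). The Lrig1 effect minus the K14 effect was -3.16 on the log2 scale (limma, adjusted p = 0.0384), and adjusted p ran from 2.91e-06 to 0.411 over 18 alternatives, in which the sign never changed and 11 passed.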

How the results depend on the processing

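Each of the 6 comparisons was recomputed under up to 19 alternatives, 8 of which leave out 1 library. The sign was kept in 1075 of 1114 member values, and no value that had passed changed sign. The number of members that passed was 1 in K14 ablation as reported, 0 with the replicate block, 2 with array weights, 0 with only the 2 groups fitted and 0 to 2 on leaving out a library. In Lrig1 ablation it was 2 as reported, 1 with equal library totals, the replicate block or array weights, 0 with 2 groups and 0 to 3 on leaving out a library. For the mean effect it was 1 as reported, 0 with no filter or with the block and 0 to 3 on leaving out a library, and for the difference of the effects 1 as reported, 0 with the filter at 1e-05, equal totals or the block and 0 to 3 on leaving out a library. Between controls it was 4 as reported, 7 with 2 groups and 1 to 5 on leaving out a library, and between ablation groups 1 as reported, 0 with either other filter, the block, array weights or 2 groups and 0 to 4 on leaving out a library. The causes were not tested.

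Over all genes, calls in K14 ablation numbered 34 as reported, 477 with array weights, 220 with DESeq2 and 0 with 2 groups, and in Lrig1 ablation 737 as reported, 451 with array weights and 170 with 2 groups. On leaving out a library they ran from 0 to 740 in K14 ablation, 5 to 2498 in Lrig1 ablation, 44 to 2592 for the mean, 0 to 2022 for the difference, 1 to 3539 between controls and 0 to 4041 between ablation groups, so the shares of all genes set beside member counts move by over 1.5 times. Equal library totals moved the median of all genes by 0.25 in Lrig1 ablation, 0.14 for the mean, 0.23 for the difference and 0.13 between ablation groups. Of all calls, 18.9% were higher in Lrig1 ablation as deposited and 60.4% with equal totals, 28.5% and 60.9% for the mean, and 74.2% and 60.8% between controls. Signs turned with equal totals for Nqo1 (0.0915), Hmox1 (0.20) and Keap1 (0.0777) in Lrig1 ablation, for Gclc in the mean (0.12) and for Gclm (0.15) and Nfe2l2 (0.0039) in the difference. They also turned for Hmox1 in Lrig1 ablation with edgeR (0.0672) and DESeq2 (0.0405), and for Gclc in the mean with TMM (0.0098), edgeR (0.0311) and DESeq2 (0.015).

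On leaving out a library, log2 differences in K14 ablation ran from -0.38 to 0.28 for Gclc, -0.68 to 0.16 for Osgin1 and -0.0075 to 0.44 for Txnrd1. In Lrig1 ablation they ran from -0.32 to 0.0079 for Nqo1, -0.13 to 0.18 for Gclc, -0.54 to 0.44 for Hmox1 and -0.43 to 0.0909 for Keap1. In the mean they ran from -0.18 to 0.15 for Gclc, -0.16 to 0.26 for Osgin1 and -0.0305 to 0.23 for Keap1, and in the difference from -0.26 to 0.40 for Gclc and -0.42 to 0.27 for Gclm. Keap1 ran from -0.12 to 0.0751 between controls, and between ablation groups Nqo1 ran from -0.14 to 0.19, Gclc from -0.0163 to 0.64, Gclm from -0.16 to 0.53 and Srxn1 from -0.65 to 0.0049.

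Same-numbered libraries did not deviate together (correlations of -0.05 to 0.08), so the numbers do not pair them. The replicate block took the number of all genes called to 21 in K14 ablation and 504 in Lrig1 ablation. Fits to 2 groups exist only for comparisons of 2 groups, and at the 1e-05 filter Hmox1 and Gsta2 were not tested.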

Other observations

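Between the controls, outside any ablation, 6 of the 100 tested pathway genes passed as higher in Lrig1 control and 3 as lower, against 8.79% of all genes in either direction. Those singled out here were chosen after their values were seen. Slc40a1, the iron exporter ferroportin, had 746 and 792 normalised read counts in Lrig1 control against 60.9 and 70.9 in K14 control (log2 difference 3.53 ± 0.30, limma adjusted p = 0.00302). It was also higher in Lrig1 ablation, with 292 and 515, than in K14 ablation, with 52.4 and 78.3 (2.58 ± 0.30, adjusted p = 0.0242). Gstm5, a glutathione transferase, had 1296 and 1226 in Lrig1 control against 119.8 and 116 in K14 control (3.41 ± 0.55, adjusted p = 0.0108). Nfe2l3, another relative of NRF2, had 914 and 806 in Lrig1 control against 159 and 173 in K14 control (2.36 ± 0.41, adjusted p = 0.0134). Leaving out either Lrig1 control library ended all 3 calls between controls (adjusted p from 0.0624 to 0.126), and leaving out either K14 control library ended those of Gstm5 and Nfe2l3 (0.0881 to 0.115). Between ablation groups the call of Slc40a1 was lost without any 1 of the 4 control libraries (0.0841 to 0.106) and with only the 2 groups fitted (0.331). All 3 genes were high where Gpx2 was high among the controls, but they were singled out with these values known, so this is no separate result. Endothelial markers were high in Lrig1 control too, and their part in these values was not tested.

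Among all pairs of members, Pearson's r over the 8 libraries was highest for Gpx2 and Nqo1 (0.869), followed by Hmox1 and Keap1 (0.865). It was lowest for Gpx2 and Osgin1 (-0.870). All other pairs lay between these extremes, such as Srxn1 and Nfe2l2 at 0.006. The libraries fall in 4 groups of 2, so these values describe group levels.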
